A study of Mus musculus with 5 samples.

Results

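The subunits of the Polycomb repressive complexes and their closest partners were described across 5 mouse arrays, of embryonic stem cells (ESCs) and of embryonic fibroblasts (MEFs). The members were 33 genes, listed by name, and earlier results of these data were known when the list was chosen. Of these, 32 were measured by a probe set that belongs to 1 gene, among 19938 genes so measured on the array. Cbx6, a chromobox subunit, shared its probe set with other genes and was not analysed here. The ESCs comprised a 2i group and an S group, the MEFs a 4n 2i, a 2n 2i and a control group, with 1 array each. All cells came from an F1 cross of the strains 129X1/SvJ and MSM/Ms. The titles also carry a number that the labels do not explain, which is 15 in both the 2i ESC and the 2n 2i MEF title, 36 in the S ESC title, 2 in the 4n 2i MEF title and 4 in the control MEF title. The name 2i usually means a culture medium with inhibitors of the kinases MEK and GSK3, while the labels do not spell out S, 2n and 4n.

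Polycomb repressive complex 2 (PRC2) methylates lysine 27 of histone H3, and Polycomb repressive complex 1 (PRC1) attaches ubiquitin to histone H2A and compacts chromatin. Each PRC1 complex is built on a RING ligase and 1 of several PCGF proteins. Canonical PRC1 also holds a chromobox (CBX) protein that reads the PRC2 mark, while variant PRC1 holds RYBP or YAF2 in its place. In ESCs these complexes cover the promoters of developmental genes, and many of the subunits come as paralogues whose use differs between cell types.

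The cell labels were checked against marker genes first. All 8 pluripotency markers reached the floor on the 2i and S ESC arrays and none on a MEF array, where the floor is the array's median over gene-named probe sets (217.9 to 240.1 intensity units). All 9 measured fibroblast markers reached it on every MEF array, against 4 on the 2i and 5 on the S ESC array. Macrophage markers stood apart on the 4n 2i MEF array, with 6 of 9 at or above the floor and a summed intensity of 14793, against 1471 on the 2n 2i MEF array and 1894 on the control MEF array. Mesothelial markers reached the floor in 4 of 4 cases on the 4n and the 2n 2i MEF array and in 0 of 4 on the control MEF array, with summed intensities of 5388, 2815 and 625. The 16 measured genes of DNA replication and mitosis had a mean log2 intensity of 12.05 in 2i ESCs, 12.24 in S ESCs, 10.32 in 4n 2i MEFs, 10.99 in 2n 2i MEFs and 10.59 in control MEFs. Many deposited values were identical between MEF arrays, from 37.37% to 45.44% of probe sets per pair, against 1.19% between the ESC arrays. Between an ESC and a MEF array the share was 0.0%. Whether the arrays of the 2 cell types were processed alike is not stated and was not tested. Of the tested genes, 33.31% were identical on at least 2 MEF arrays. They included 8 members on at least 1 pair of these arrays, namely Ezh2, Pcgf1, Cbx7, Cbx8, Phc2, Phc3, Rybp and Kdm2b. Of these, Cbx7 and Phc3 were identical on all 3. For all 8 members the spread between MEF arrays is not a fully measured one, and their SEs and p-values carry this limit.

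Promoters of the members were richer in CpG than promoters over all genes, a feature that the choice by name did not use. RefSeq promoters (GRCm38.p6, 250 bases before to 50 after the gene start) were found for 28 of the 33 members, with 40 start sites. Pcgf1, Cbx2, Rybp, Yaf2 and Kdm6b had no entry. The member promoters held a median of 23 CpG dinucleotides, against 7 over all 32851 promoters. At least 15 CpGs stood in 82.5% of member promoters and in 34.6% of all promoters. All promoters include those of genes below the floor here, while every measured member reached it on its brightest array. Start sites a few bases apart, as in Bcor and Kdm2b, were counted separately. Phc1 (9 CpGs) and Pcgf2 (10) were the members without a promoter of that density. The promoters of 3 PRC2 core genes that differed together between the cell types, Ezh2, Suz12 and Eed, are shown beside those of Cbx7 and Bmi1, the members with the largest differences in each direction.
Ezh2 (chr6:47594981-47595280, minus strand): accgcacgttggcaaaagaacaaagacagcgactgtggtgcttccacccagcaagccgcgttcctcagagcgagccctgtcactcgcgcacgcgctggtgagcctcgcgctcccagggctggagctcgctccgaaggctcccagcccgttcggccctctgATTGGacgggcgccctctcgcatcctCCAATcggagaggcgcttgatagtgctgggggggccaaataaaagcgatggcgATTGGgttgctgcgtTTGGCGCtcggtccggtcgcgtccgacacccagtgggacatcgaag
Suz12 (chr11:79992856-79993155, plus strand): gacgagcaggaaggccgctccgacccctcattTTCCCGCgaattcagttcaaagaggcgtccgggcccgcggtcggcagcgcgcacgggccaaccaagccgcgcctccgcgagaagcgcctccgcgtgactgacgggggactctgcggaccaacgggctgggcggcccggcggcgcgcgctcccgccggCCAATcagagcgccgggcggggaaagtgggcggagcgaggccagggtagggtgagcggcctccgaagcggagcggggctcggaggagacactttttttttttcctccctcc
Eed (chr7:89980927-89981226, minus strand): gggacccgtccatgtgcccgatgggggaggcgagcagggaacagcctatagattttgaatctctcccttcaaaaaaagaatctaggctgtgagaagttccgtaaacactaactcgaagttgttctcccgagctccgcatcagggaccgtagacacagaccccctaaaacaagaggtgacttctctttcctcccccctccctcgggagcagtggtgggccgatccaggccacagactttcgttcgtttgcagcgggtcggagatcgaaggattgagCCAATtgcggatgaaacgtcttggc
Cbx7 (chr15:79932597-79932896, minus strand): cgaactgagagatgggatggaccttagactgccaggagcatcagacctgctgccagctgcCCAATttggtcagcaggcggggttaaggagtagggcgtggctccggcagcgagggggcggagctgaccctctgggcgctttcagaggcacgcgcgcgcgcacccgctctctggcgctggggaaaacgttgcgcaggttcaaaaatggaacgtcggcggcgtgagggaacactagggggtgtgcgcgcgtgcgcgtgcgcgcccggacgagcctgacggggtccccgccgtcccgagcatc
Bmi1 (chr2:18676768-18677067, plus strand): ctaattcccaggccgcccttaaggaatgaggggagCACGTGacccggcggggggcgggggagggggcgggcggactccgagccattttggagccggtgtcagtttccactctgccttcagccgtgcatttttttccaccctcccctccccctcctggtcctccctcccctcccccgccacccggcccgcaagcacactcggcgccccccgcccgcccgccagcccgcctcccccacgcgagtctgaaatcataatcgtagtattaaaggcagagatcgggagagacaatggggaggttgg
Capitals mark matches on either strand to CCAAT (the CCAAT box), TTCCCGC or TTGGCGC (E2F sites) or CACGTG (the E-box), and no marked match overlaps another in these 5 promoters. Ezh2 held 31 CpGs, an E2F match that starts at base 5 of the gene and 3 CCAAT matches. Suz12 held 41 CpGs, an E2F match at base -218 and a CCAAT match at base -61. E2F matches were found in 6 of the 40 member promoters, in 6.8% of all promoters and in 14.9% of the promoters with at least 15 CpGs. For the E-box the counts were 8 of 40, 7.2% and 11.3%, and for the CCAAT box 17 of 40, 37.4% and 34.9%. Also searched were CCGGAAG (an ETS core, in 1 of 40 member promoters, 8.9% of all and 18.9% of the CpG-rich promoters) and AAGATGG (a YY1 core, in 2 of 40, 6.3% and 6.7%). ATGCAAA (part of the octamer) was in 3 of 40, 4.6% and 2.4%, and GCGCATG (part of the NRF1 site) in 3 of 40, 3.9% and 8.1%. A match describes the letters only.

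In ESCs against MEFs, 14 of the 32 measured members were higher, 4 were lower and 14 did not pass the test. The members called higher included 4 of the 6 PRC2 core genes, the PRC2 partners Jarid2 and Mtf2, and PRC1 genes such as Phc1 and Pcgf6. Those called lower were Phf1, Phc3, Yaf2 and Bmi1. Cbx7, called higher, entered the test through its ESC values alone and Bmi1 through its MEF values alone. The filter therefore fixed their directions, and nothing is read from them. Both stay in the counts and shares of members given here. The test was limma over the 2 ESC and 3 MEF arrays, fitted on 11841 genes, and a call needed a 2-fold difference and a p under 0.05 after Benjamini-Hochberg adjustment. By this rule 16.6% of all tested genes were higher and 16.3% lower. The share of higher members (43.8%) lay above the share over all genes and the share of lower members (12.5%) near it. As the members were chosen with earlier results of these data known, these shares describe the list and test nothing. ESC and MEF arrays did not overlap for 27 members, 20 with ESCs above and 7 with ESCs below, where 77.8% of all genes did not overlap (41.6% with ESCs above and 36.2% with ESCs below). The median log2 difference was 0.65 over the members and 0.06 over all genes tested. All 32 measured members were tested, and 28 reached the floor on every array. As each group had 1 array, the spread in this test is that between conditions of a cell type. Whether the samples came from separate cultures is not stated, so that p-values measure the spread between these samples only, and the number of arrays limits the precision.

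**Figure D1:**
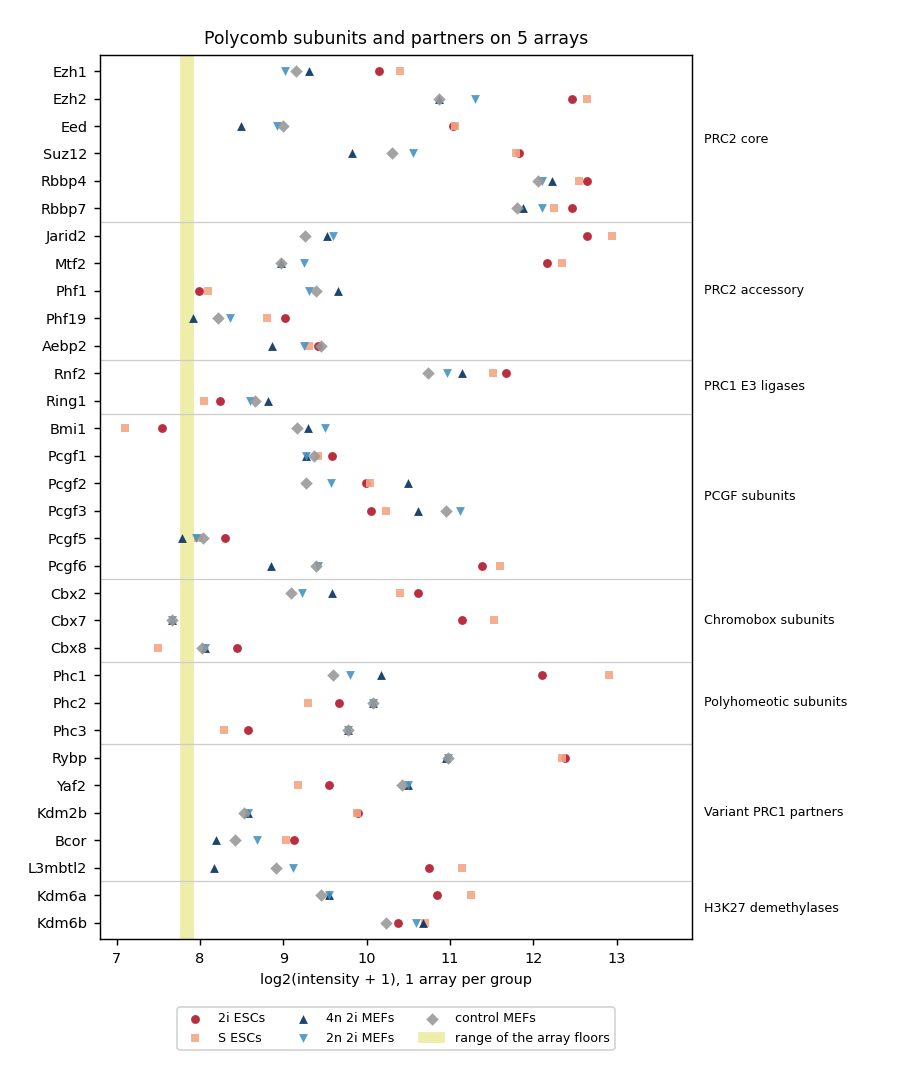
Intensity of each measured member on the 5 arrays, as log2(intensity + 1) on the x axis, with members grouped by role down the page and 1 point per array (identical values overlie each other). The band gives the range of the 5 array floors. Jarid2, Mtf2 and Cbx7 show the widest gaps between the ESC points and the MEF points, and rows are not comparable in level, since each is another probe set.

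Within the PRC2 core, 4 of 6 genes rose in ESCs and none fell, where 16.6% of all tested genes were higher and 16.3% lower. Ezh2 (Entrez Gene 14056), the main methyltransferase of dividing cells, had 5691 intensity units in 2i ESCs and 6380 in S ESCs, against 1873 in 4n 2i MEFs, 2527 in 2n 2i MEFs and 1873 in control MEFs. Every ESC array lay above every MEF array, and the group means of the log2 values differed by 2.91-fold (log2 1.54 ± 0.18 SE, adjusted p = 0.00282 in limma). The identical values in 4n 2i and control MEFs mean that the MEF spread of Ezh2 is not a fully measured one. The other methyltransferase gene, Ezh1 (Entrez Gene 14055), which is typical of resting cells, rose as well, at 1134 and 1353 units in 2i and S ESCs against 634.2, 518.5 and 566.2 in 4n 2i, 2n 2i and control MEFs. Its log2 difference was 1.12 ± 0.14 (SE, adjusted p = 0.00358 in limma).

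Eed (Entrez Gene 13626), which binds the methylated histone and stimulates the enzyme, had the widest gap of the core, with 2111 units in 2i ESCs and 2141 in S ESCs, against 359.1 in 4n 2i MEFs, 484.3 in 2n 2i MEFs and 508.5 in control MEFs. The ESC arrays were alike and 4.76-fold above the MEF arrays (log2 2.25 ± 0.18 SE, adjusted p = 0.00116 in limma). A dimmer second probe set of Eed, below the floor on all 5 arrays, gave a log2 difference of 0.53. Suz12 (Entrez Gene 52615), the scaffold of the complex, had 3629 and 3550 units in 2i and S ESCs, against 900.0, 1505 and 1263 in 4n 2i, 2n 2i and control MEFs (log2 1.58 ± 0.24 SE, adjusted p = 0.00631 in limma). Its MEF values ranged more widely than its ESC values, and without the 2i or the S ESC array the adjusted p in limma was 0.0718 or 0.0704. Without the S ESC array, Ezh1 stood at a log2 difference of 0.99, just within 2-fold.

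The histone-binding subunits Rbbp4 and Rbbp7, which PRC2 shares with other chromatin complexes, stayed within 2-fold. Rbbp4 (Entrez Gene 19646) averaged 12.60 ± 0.07 in ESCs (log2, SD, n = 2) and 12.13 ± 0.09 in MEFs (SD, n = 3), a log2 difference of 0.46 with an adjusted p of 0.0152 in limma. Rbbp7 had a log2 difference of 0.42 and an adjusted p of 0.0566 in limma, with a 95% interval from 0.05 to 0.78.

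The PRC2 accessory genes split by paralogue. Jarid2 (Entrez Gene 16468), which helps to bring PRC2 to its targets in ESCs, had 6424 and 7865 units in 2i and S ESCs, against 734.0, 775.0 and 610.2 in 4n 2i, 2n 2i and control MEFs. Mtf2 (Entrez Gene 17765), a Polycomb-like protein that binds unmethylated CpG-rich DNA, had 4563 and 5176 units in 2i and S ESCs, against 500.0, 606.0 and 500.6 in the same MEF groups. The difference was 10.1-fold for Jarid2 (adjusted p = 0.000387 in limma) and 9.10-fold for Mtf2 (adjusted p = 0.000325 in limma), and neither gene's arrays overlapped.

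Phf1 (Entrez Gene 21652), another Polycomb-like protein, went the opposite way. It had 253.4 and 274.3 units in 2i and S ESCs, against 806.4, 633.4 and 671.4 in 4n 2i, 2n 2i and control MEFs, a log2 difference of -1.41 ± 0.14 (SE, adjusted p = 0.0019 in limma). The ESC values lay just above the floor. Phf19, the remaining Polycomb-like gene, had a log2 difference of 0.75 (adjusted p = 0.0195 in limma), within 2-fold. Aebp2, a partner found in the same PRC2 form as Jarid2, had overlapping arrays and a log2 difference of 0.18 with a 95% interval from -0.36 to 0.71.

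**Figure D2:**
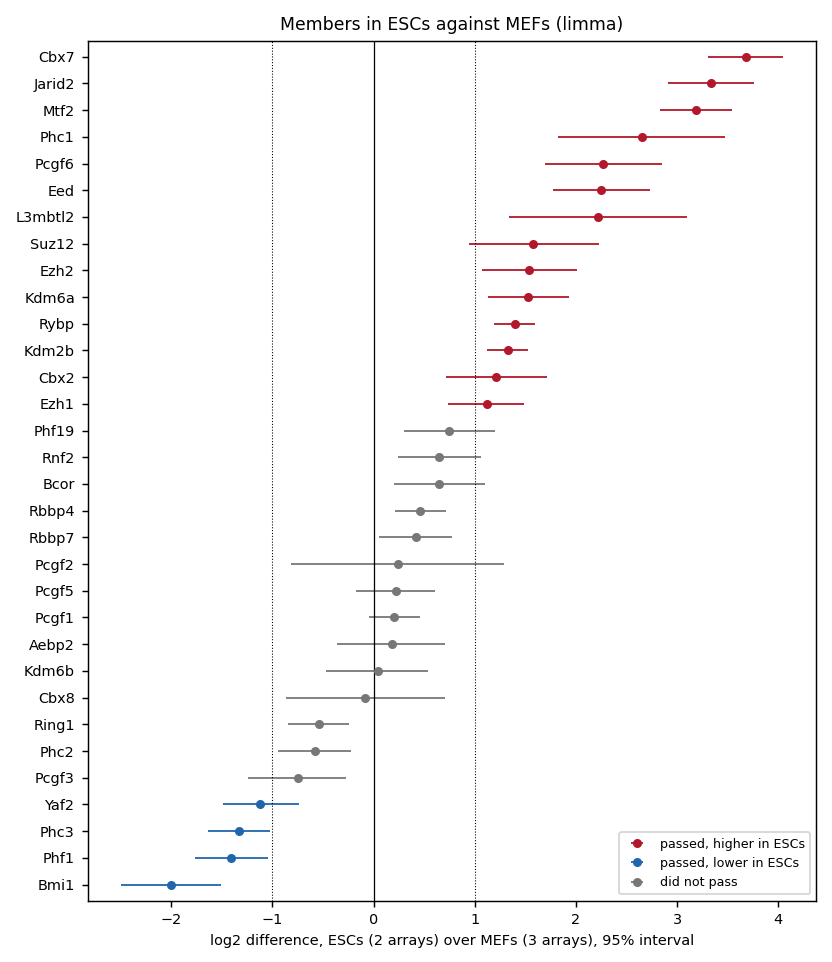
Log2 difference of each measured member between ESCs (2 arrays) and MEFs (3 arrays) from limma on the x axis, with its 95% interval, ordered from the highest to the lowest. Red members passed the test as higher in ESCs (14), blue members as lower (4) and grey members did not pass (14). Dotted lines stand at 2-fold.

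Neither RING ligase of PRC1 passed the test. Rnf2, which encodes RING1B, had 3266 and 2932 units in 2i and S ESCs, against 2265, 1993 and 1705 in 4n 2i, 2n 2i and control MEFs (log2 0.65, adjusted p = 0.0222 in limma). Its paralogue Ring1 (RING1A) lay on the other side, with 301.4 and 264.4 units in 2i and S ESCs against 447.7, 386.3 and 404.2 in the same MEF groups (log2 -0.54, adjusted p = 0.0162 in limma). In each case the arrays of the cell types did not overlap, and the difference stayed within 2-fold.

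Of the 6 PCGF genes, 1 rose, 1 fell and 4 did not pass, which is near the shares over all tested genes (16.6% higher and 16.3% lower). Pcgf6 (Entrez Gene 71041), the PCGF protein of the PRC1 form that silences germline genes in ESCs, had 2661 and 3096 units in 2i and S ESCs, against 459.8, 677.2 and 670.1 in 4n 2i, 2n 2i and control MEFs (4.83-fold, adjusted p = 0.0018 in limma). Bmi1 (Entrez Gene 12151), the PCGF protein known for repressing the Cdkn2a locus in somatic stem cells, had 184.7 and 135.8 units in 2i and S ESCs, against 623.0, 725.6 and 572.8 in the same MEF groups. All MEF arrays lay above both ESC arrays (log2 -2.0 ± 0.19 SE, adjusted p = 0.00166 in limma). Both ESC values of Bmi1 were below the floor, where an unknown part of the signal is background. Bmi1 entered the test through its MEF values alone, so that its direction was fixed by the filter and nothing is read from it.

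Pcgf2 (MEL18), the closest paralogue of Bmi1, did not pass the test. It had 1016 and 1052 units in 2i and S ESCs, against 1442, 758.2 and 618.4 in 4n 2i, 2n 2i and control MEFs, and the arrays overlapped (log2 0.24, adjusted p = 0.633 in limma). Without the control MEF array its log2 difference was -0.02. Without the 4n 2i MEF array it was 0.59. Pcgf3 was lower in ESCs within 2-fold (log2 -0.75, adjusted p = 0.0238 in limma). Pcgf1, which joins Kdm2b and Bcor in a variant PRC1, and Pcgf5 had log2 differences of 0.20 and 0.22, with adjusted p values of 0.134 and 0.255 in limma.

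Among the chromobox genes, Cbx7 (Entrez Gene 52609), the main chromobox protein of PRC1 in ESCs, had the largest difference of all measured members. It had 2263 units in 2i ESCs and 2961 in S ESCs, against 200.9 on each MEF array. The log2 difference was 3.68 ± 0.14 (SE, adjusted p = 0.000275 in limma). It was 3.88 without the 2i ESC array and 3.49 without the S ESC array. Leaving out a MEF array could not change it, since the MEF values were identical. The MEF value was below the floor and identical on the 3 arrays, so that the fold depends on an unknown background. Cbx7 entered the test through its ESC values alone, so that its direction was fixed by the filter and nothing is read from it. Cbx2 (Entrez Gene 12416), a chromobox protein that compacts chromatin, had 1576 and 1349 units in 2i and S ESCs, against 766.0, 596.9 and 543.9 in 4n 2i, 2n 2i and control MEFs (log2 1.21, adjusted p = 0.00638 in limma). Without the 2i ESC array its adjusted p in limma was 0.0676. Cbx8 had 345.3 units in 2i ESCs and 179.3 in S ESCs, against 265.6, 265.6 and 257.7 in the MEF groups, so that its MEF values lay between the ESC values. Its log2 difference was -0.08, and 0.39 without the S ESC array.

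The Polyhomeotic genes, whose proteins polymerise and bring PRC1 complexes together, gave 1 member in each class. Over all tested genes, 16.6% were higher and 16.3% lower. Phc1 (Entrez Gene 13619) had 4412 units in 2i ESCs and 7685 in S ESCs, against 1153, 892.9 and 775.5 in 4n 2i, 2n 2i and control MEFs. The ESC arrays differed from each other but both lay above the MEF arrays (6.27-fold, adjusted p = 0.00299 in limma). Phc3 (Entrez Gene 241915) fell, with 382.6 and 312.4 units in 2i and S ESCs against 871.9 on each MEF array (log2 -1.33, adjusted p = 0.00141 in limma). A second probe set of Phc3, whose MEF values were not identical, gave -1.22, with both ESC values below the floor. Phc2 was lower in ESCs within 2-fold (log2 -0.58, adjusted p = 0.021 in limma).

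Of the 5 variant PRC1 partners, 3 rose and 1 fell, against 16.6% higher and 16.3% lower over all tested genes. L3mbtl2 (Entrez Gene 214669), which works with Pcgf6, had 1725 and 2259 units in 2i and S ESCs, against 286.5, 550.4 and 479.0 in 4n 2i, 2n 2i and control MEFs (4.66-fold, adjusted p = 0.00599 in limma). Without the 2i or the S ESC array, its adjusted p in limma was 0.0546 or 0.0749. Kdm2b (Entrez Gene 30841), which binds CpG islands and recruits variant PRC1, had 949.3 and 944.1 units in 2i and S ESCs, against 380.2, 380.2 and 368.4 in the MEF groups (log2 1.33, adjusted p = 0.000564 in limma). Rybp (Entrez Gene 56353) had 5324 and 5191 units in 2i and S ESCs, against 1980, 2003 and 2003 in 4n 2i, 2n 2i and control MEFs (2.63-fold, adjusted p = 0.000508 in limma), and its second probe set gave a log2 difference of 1.26. Its paralogue Yaf2 (Entrez Gene 67057) fell, with 746.7 and 573.6 units in 2i and S ESCs against 1446, 1449 and 1369 in 4n 2i, 2n 2i and control MEFs (log2 -1.12, adjusted p = 0.00365 in limma). Without the S ESC array Yaf2 stood at -0.93, within 2-fold. Bcor, the corepressor of the Pcgf1 complex, was within 2-fold (log2 0.65, adjusted p = 0.0296 in limma). Kdm2b had identical values on the 4n and 2n 2i MEF arrays, and Rybp on the 2n 2i and control MEF arrays. The p-values of Kdm2b and Rybp therefore rest on a MEF spread that is not a fully measured one.

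The demethylases that remove the PRC2 mark also differed from each other. Kdm6a (Entrez Gene 22289), an X-linked gene known to escape X inactivation, had 1828 and 2430 units in 2i and S ESCs, against 751.0, 746.3 and 698.3 in 4n 2i, 2n 2i and control MEFs (2.88-fold, adjusted p = 0.00191 in limma). Kdm6b, a demethylase gene induced by many signals, had overlapping arrays and a log2 difference of 0.04, with a 95% interval from -0.47 to 0.54. Its sign turned without the S ESC array (-0.12) and without the control MEF array (-0.10).

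The balance between paired members was then followed from array to array, as the log2 difference between 2 genes on the same array. Only its shift between arrays is read, since the level depends on the probe sets. In 8 of 10 balances the ESC arrays did not overlap the MEF arrays. As 77.8% of single genes did not overlap either, and the share over other pairs of genes was not computed, nothing is read from this count. Which side is above depends on the gene named first. Pcgf6 minus Pcgf3 was 1.33 and 1.36 in 2i and S ESCs, against -1.76, -1.71 and -1.56 in 4n 2i, 2n 2i and control MEFs, a shift of 3.03. Phc1 minus Phc2 shifted by 3.23, Rybp minus Yaf2 by 2.51, Pcgf2 minus Bmi1 by 2.24 and Phf19 minus Phf1 by 2.15. The shifts that involve Bmi1, below the floor on both ESC arrays, and Cbx8, below it on the S ESC array, hold an unknown part of background. As the filter fixed the direction of Bmi1, nothing is read from the shift of Pcgf2 minus Bmi1. Smaller shifts were seen for Kdm6a minus Kdm6b (1.49), Cbx2 minus Cbx8 (1.29) and Rnf2 minus Ring1 (1.19).

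Ezh2 minus Ezh1 did not separate the cell types. It was 2.33 and 2.24 in 2i and S ESCs, against 1.56, 2.28 and 1.72 in 4n 2i, 2n 2i and control MEFs, so that the 2n 2i MEF array lay between the ESC arrays. Rbbp7 minus Rbbp4 overlapped too, with a shift of -0.05. An exact two-sided permutation test over the 5 arrays gave p = 0.2 for each of the 8 separated balances, which is the smallest p this design allows, and 0.25 after Benjamini-Hochberg adjustment over the 10 balances. None of them could therefore pass a threshold of 0.05.

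**Figure D3:**
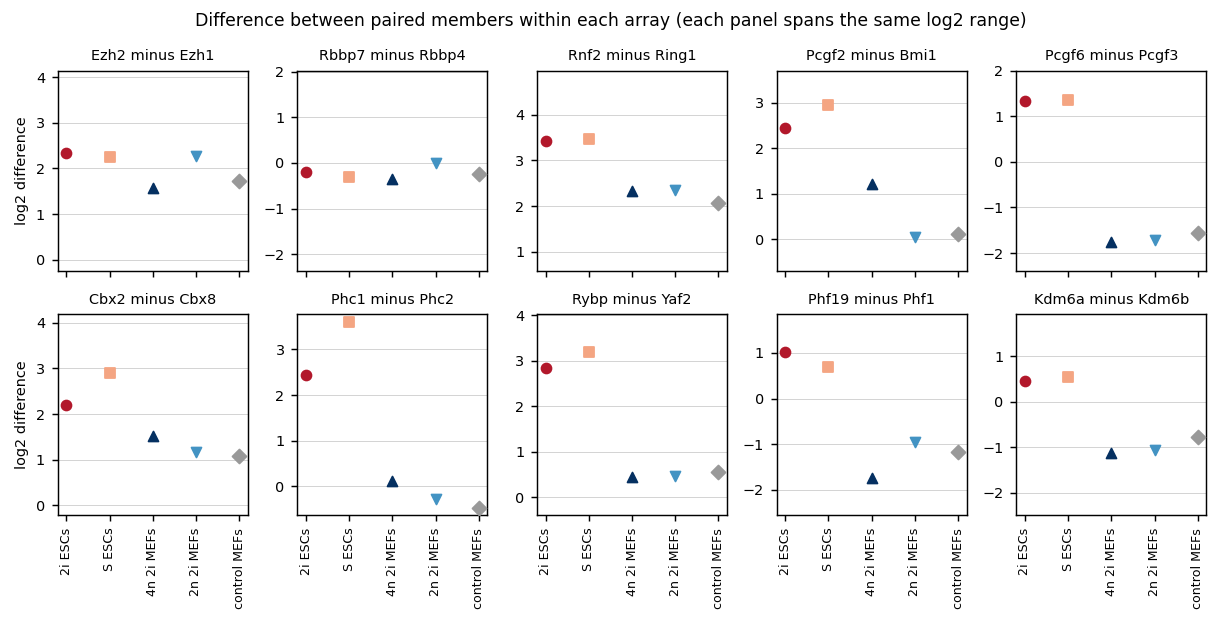
Log2 difference between 2 paired members within each array on the y axis, for the 5 arrays on the x axis (1 point per array). All panels span the same log2 range, so shifts can be compared between panels and positions cannot. In 8 of 10 panels both ESC points lie above all MEF points, and in the panels of Ezh2 minus Ezh1 and Rbbp7 minus Rbbp4 they overlap.

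Between the ESC arrays, no member was 2-fold apart. Of 31 members whose brighter array reached its floor, 17 were higher and 14 lower on the 2i ESC array by any amount, where 45.0% of all genes were higher and 0.0667% identical. Of all genes, 5.33% were at least 2-fold apart (2.78% higher and 2.54% lower in 2i ESCs). The widest gaps were in Cbx8, with 345.3 units in 2i ESCs and 179.3 in S ESCs (log2 0.94, the S value below the floor), and Phc1, with 4412 units in 2i ESCs and 7685 in S ESCs (log2 -0.80). The chromobox gene Cbx7 (-0.39) and L3mbtl2 (-0.39) were also lower on the 2i ESC array. The PRC2 core stayed between -0.25 (Ezh1) and 0.21 (Rbbp7), with Eed at -0.02 and Suz12 at 0.03. With 1 array per group these differences have no replicate check and no test.

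Of the 3 X-linked members, Kdm6a was lower on the 2i ESC array (log2 -0.41), while Rbbp7 (0.21) and Bcor (0.10) were higher. The median over 367 X-linked genes in this pair was 0.29. Kdm6b, which is autosomal, had -0.32.

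Between 4n 2i MEFs and control MEFs, 1 of 31 members was at least 2-fold apart, where 8.65% of all genes were (5.23% higher and 3.42% lower in 4n 2i MEFs). By any amount 16 members were higher, 13 lower and 2 identical, against 36% of all genes higher and 12.8% identical. The member past 2-fold was Pcgf2 (Entrez Gene 22658), with 1442 units in 4n 2i MEFs and 618.4 in control MEFs (log2 1.22). The 4n 2i MEF value was also above both ESC values. In the same pair the 4 mesothelial markers, all below the floor on the control array, were higher by a median of 2.92, each past 2-fold. Of 9 macrophage markers, the 6 past the floor were higher by a median of 3.11, each past 2-fold. Among these, Csf1r, Adgre1, Fcgr3 and Tyrobp were past the floor on the 4n array alone. Ptprc (0.94), Cd14 (0.29) and Itgam (0.24) were below the floor on both arrays and within 2-fold. Of 16 replication and mitosis genes, 15 were lower, with a median of -0.23. The part of these lists in the Pcgf2 difference was not tested. Phc1 (0.57), Cbx2 (0.49) and Kdm6b (0.44) were next on the higher side. L3mbtl2 (-0.74), Aebp2 (-0.59), Pcgf6 (-0.54), Eed (-0.50) and Suz12 (-0.49) were the lowest, and all stayed within 2-fold.

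Between 4n 2i MEFs and 2n 2i MEFs no member was 2-fold apart, against 5.69% of all genes (3.33% higher and 2.36% lower in 4n 2i MEFs). By any amount 10 members were higher, 17 lower and 4 identical, against 33.2% of all genes higher and 12.1% identical. L3mbtl2 had 286.5 units in 4n 2i MEFs and 550.4 in 2n 2i MEFs (log2 -0.94). Pcgf2 had 1442 in 4n 2i MEFs and 758.2 in 2n 2i MEFs (log2 0.93, or 1.01 with quantile normalization, past 2-fold). In the PRC2 core, Suz12 (-0.74), Ezh2 (-0.43), Eed (-0.43) and Rbbp7 (-0.23) were lower on the 4n array, and Ezh1 (0.29) and Rbbp4 (0.12) higher. Beside this, all 16 measured genes of DNA replication and mitosis were lower on the 4n array, with a median log2 difference of -0.68. The 6 of 9 macrophage markers past the floor were higher by a median of 3.39. The part of either list in the Polycomb differences was not tested. In such bulk samples, fewer cells of a type and less RNA per cell cannot be told apart.

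Between 2n 2i MEFs and control MEFs no member was 2-fold apart either, against 1.91% of all genes (1.47% higher and 0.433% lower in 2n 2i MEFs). By any amount 21 of 31 members were higher on the 2n array, 7 lower and 3 identical, where 44.6% of all genes were higher and 20.9% identical. The median was 0.10 over the members and 0.00 over all genes. Ezh2 was at the top, with 2527 units in 2n 2i MEFs and 1873 in control MEFs (log2 0.43), followed by Kdm6b (0.36), Jarid2 (0.34) and Bmi1 (0.34). Aebp2 (-0.20) was at the bottom. All 16 genes of DNA replication and mitosis were higher on the 2n array as well, with a median of 0.42. So were all 4 mesothelial markers, each past 2-fold with a median of 2.06, although all 4 were below the floor on the control array. The part of either was not tested. The comparisons of 2n and 4n with control MEFs share the control array, so that their values are not independent.

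**Figure D4:**
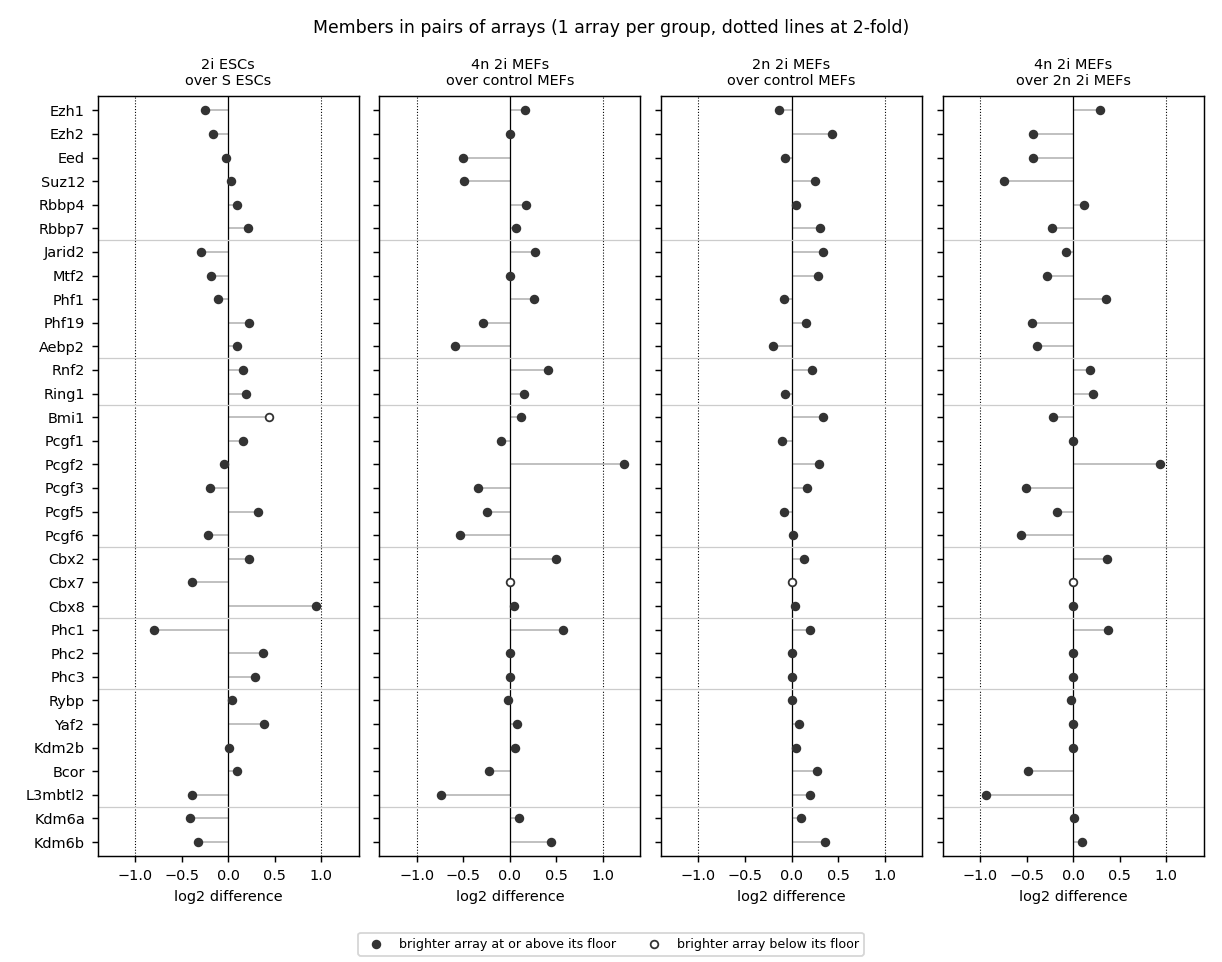
Log2 difference of each member between pairs of arrays (x axis), with 1 array per group and dotted lines at 2-fold. Filled points have the brighter array at or above its floor and open points below it. Pcgf2 in 4n 2i MEFs over control MEFs is the only point past a dotted line.

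Genes that act with or against the listed members were taken from further lists, also chosen with earlier results of these data known. Their counts stand beside the shares of all tested genes, 16.6% higher and 16.3% lower in ESCs, and the median of 0.06 over all genes. Of 6 tested other PRC2 partners 3 were higher in ESCs and none lower. They were led by Epop, an ESC partner of PRC2, with 1841 and 2910 units in 2i and S ESCs against 262.8 on each MEF array (log2 3.13, adjusted p = 0.000793 in limma). Zfp518b (1.09) and Zfp518a (1.03) were the others. Of 22 other PRC1 partners 4 were higher and 1 lower, with a list median of 0.30, which is near the share over all genes for the higher side. The higher ones were Wdr5 (log2 2.29), which also serves MLL complexes, Sfmbt2 (1.83, below the floor in 4n and 2n 2i MEFs), the ubiquitin protease Usp7 (1.42) and Mga (1.4), a partner of Pcgf6 and L3mbtl2. Fbrs was lower (-1.0). Auts2, a partner of the Pcgf3 and Pcgf5 complexes, had no cell type difference past the test but stood at 1222 units in 4n 2i MEFs and 660.9 in 2n 2i MEFs, against 290.2 in control MEFs (log2 2.07 for 4n and 1.18 for 2n over control). Beside this, the 4 mesothelial markers were higher than in control MEFs by a median of 2.92 on the 4n and 2.06 on the 2n array. The 6 of 9 macrophage markers past the floor were higher by a median of 3.11 on the 4n array. The part of either marker list in the Auts2 values was not tested.

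Of 12 genes of the complexes that remove the PRC1 mark (H2A deubiquitinases), none was higher in ESCs and 1 was lower, Foxk1 (log2 -1.16, adjusted p = 0.00837 in limma). The Trithorax and MLL list holds methyltransferases of different histone marks, Nsd1 among them, shared subunits of MLL complexes and KDM5 demethylases. Of its genes 7 of 20 were higher and none lower, with a median of 0.53. The leading ones were Kdm5b (2.57), whose product removes H3K4 methylation, the core subunit genes Ash2l (1.65) and Dpy30 (1.54), and the methyltransferase gene Nsd1 (1.32), with adjusted p values in limma from 0.000503 to 0.00795. Replication and mitosis genes had 13 of 16 higher and none lower, with a median of 1.52.

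**Figure D5:**
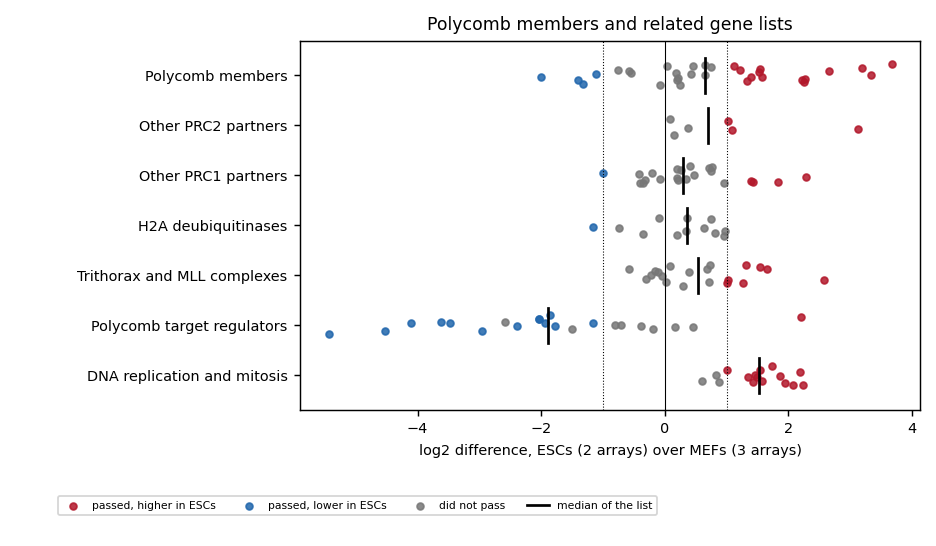
Log2 difference between ESCs (2 arrays) and MEFs (3 arrays) on the x axis for the members and 6 related lists, 1 point per tested gene, coloured by the limma test, with a bar at each list's median. The members spread from -2.0 (Bmi1) to 3.68 (Cbx7), and the Polycomb target regulators, described in the closing section, reach furthest to the low side, many of them below the floor on the ESC arrays.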

How the data were processed

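Per the labels' protocols, total RNA was labelled with a whole-transcript kit and hybridised to 5 arrays. The values are linear intensities of 28853 probe sets, as deposited in 1 table. The sources used here do not give their background correction, summarisation and normalization. Arrays carry no read depth, and detection calls were not used.

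Intensities were analysed as log2(value + 1), so that fold changes are on this scale and understate those of dim genes. Of the probe sets, 21789 carried 1 gene symbol in the platform annotation, 1621 several and 5443 none. Symbols were updated by Entrez Gene number through the RefSeq table of GRCm38.p6 (21698 matched). For a gene with several probe sets, the brightest over the 5 arrays was used (Eed, Rbbp7, Phc3 and Rybp among the members). A gene was compared when its value on the brightest array compared reached the floor of that array (the median over gene-named probe sets). ESCs and MEFs were compared with limma (lmFit and eBayes, 3 residual degrees of freedom, 11841 genes), and pairs of arrays by log2 difference without a test. Simulated data run through limma had independent noise on each array. They held no identical MEF values, so that they could not check how such values act on the test. Paired members were compared with an exact permutation test.

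All members could be named, with up to 4 genes of each other list per comparison, the largest past the call rule. Members and lists were chosen with earlier results of these data known. Results were recomputed with quantile normalization, without the floor or with it at the 75th percentile, with probe sets averaged per gene, with a pseudocount of 16, at 3-fold, with an intensity trend and robust prior, without each array, and without genes with identical values on MEF arrays. The software was limma 3.58.1 in R 4.3.3, and scipy 1.17.1, pandas 2.3.3, matplotlib 3.10.9 and numpy 2.4.6 in Python 3.11.15.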

Additional observations from a re-analysis of the deposited data

How the results depend on the processing

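The number of members that differed between ESCs and MEFs was 18 with no floor, quantile normalization, averaged probe sets, a pseudocount of 16 and the trended robust prior, and all 18 were the members called in the report. It lay between 14 and 18 when 1 array was left out, where a lone ESC array is assumed to vary like the others. The members lost were Suz12, Cbx2 and L3mbtl2 without the 2i ESC array and Ezh1, Suz12, Yaf2 and L3mbtl2 without the S ESC array. With the floor at the 75th percentile, 22 members were tested, 1 member was called lower and 1094 of all genes were called higher. Without genes identical on at least 2 MEF arrays, 24 members were tested, 13 of them were called as in the report, and 1031 of all genes were called higher. At 3-fold, 8 members were called (7 higher and 1 lower), with 971 of all genes higher and 1135 lower. When 1 array was left out, the log2 difference in ESCs over MEFs of 3 members that had not passed the test ran from -0.02 to 0.59 for Pcgf2, from -0.55 to 0.39 for Cbx8 and from -0.12 to 0.20 for Kdm6b. The call counts over these fits ran from 11 to 14 (higher members), 3 to 4 (lower members), 1632 to 1873 (all genes higher) and 1398 to 2028 (all genes lower). The cause of the changes of sign was not tested.

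For all genes past 2-fold in pairs of arrays, the count was 195 (2i over S ESCs), 79 (2n 2i over control MEFs), 489 (4n 2i over control MEFs) and 298 (4n 2i over 2n 2i MEFs) with the floor at the 75th percentile. At 3-fold it was 182, 53, 379 and 204 in the same order, and the count of members in 4n 2i over control MEFs was 0. With quantile normalization 1 member, Pcgf2, was past 2-fold in 4n 2i over 2n 2i MEFs. The shift of Rbbp7 minus Rbbp4 turned to 0.02 when probe sets were averaged. No paired analysis was possible because each group had 1 array. Values below the floor (Bmi1 in ESCs, Cbx7 in MEFs, Cbx8 in S ESCs, Pcgf5 in 4n 2i MEFs) hold an unknown part of background.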

Other observations

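Of 34 measured developmental regulators known as Polycomb targets in ESCs, 22 had a brightest array that reached its floor. In limma 13 of these were lower in ESCs than in MEFs and 1 was higher, where 16.3% of all tested genes were lower and 16.6% higher. Of the 13, 11 were below the floor on both ESC arrays and entered through their MEF values alone, so that their direction was fixed by the filter and nothing is read from the count. Among them, Twist2, a mesenchymal factor, had 169.2 and 200.9 intensity units in 2i and S ESCs, against 3133, 3968 and 6143 in 4n 2i, 2n 2i and control MEFs. Meis1, a homeobox factor, had 103.2 and 96.7 in 2i and S ESCs, against 1724, 1233 and 892.4 in the same MEF groups. Prrx1, a factor of limb mesenchyme, had 93.2 units in 2i ESCs, below the floor, and 334.9 in S ESCs, against 7574, 7574 and 8059 in these MEF groups. Cdkn2b, a cell cycle inhibitor gene, was above the floor on all arrays, with 289.6 and 280.4 units in 2i and S ESCs, against 1777, 2627 and 2343 in these MEF groups (log2 -2.96). It was chosen after its values were seen, as the lower regulator above the floor on every array. Tbx3, a factor that is active in ESCs, was the higher one (log2 2.21, adjusted p = 0.000642 in limma). Polycomb binding was not measured.

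Among the MEF arrays, some of these regulators were at least 2-fold apart. Gata6 had 2259 intensity units in 4n 2i MEFs and 1281 in 2n 2i MEFs, against 609.9 in control MEFs. Wt1, which also marks mesothelium, had 680.6 in 4n 2i MEFs and 404.2 in 2n 2i MEFs, against 149.7 in control MEFs, a value below the floor. Dlx2 and Tbx18 went the other way on the 4n array, with log2 differences of -1.51 and -1.22 from control MEFs. On the ESC arrays Meis2 had 1298 units in 2i ESCs and 206.3 in S ESCs, the S value below the floor. Cdkn2a, the locus known as a Bmi1 target, had 481.2 units in 2i ESCs and 223.8 in S ESCs, the S value below the floor, and 431.2 on each MEF array. All 4 mesothelial markers were higher on the 4n and 2n arrays than on the control MEF array, and their part in these values was not tested.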
